A study of Mus musculus with 12 samples.

Results

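To follow the acute phase program of the cerebral vasculature after a systemic endotoxin challenge, 10 genes were read in RNA-seq libraries of cerebral vessels isolated from the forebrain of mice. They were the lipocalin Lcn2, the serum amyloid Saa3, haptoglobin (Hp), Lrg1, the serpins Serpina3n, Serpina3g and Serpina3f, and 3 inflammation-responsive genes that encode enzymes, namely Steap4, Ch25h and Upp1. Whether the product of each gene is secreted was not examined. The genes were chosen by name, with earlier results of these data known, so their counts of calls are not those of an independent list. They are 10 of the 54119 genes with summed counts and 10 of the 19150 genes that passed the filter on low counts, so all 10 were tested. All mice were wild type C57BL6 animals 2 to 3 months old. The control group received an intraperitoneal injection of PBS, and the other 3 groups received 10 mg/kg lipopolysaccharide (LPS) from Escherichia coli and were studied after 15 min, after 30 min or after 4 h. Each of the 4 groups held 3 libraries, and each library pooled the vessels of 1 male and 1 female mouse, so that the sexes and the mice of a library cannot be separated and the p-values measure the spread between pools.

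Acute phase proteins are plasma proteins whose concentration changes during inflammation. The liver is their best known source, where IL-6, IL-1 and TNF act through the transcription factors STAT3, C/EBP and NF-κB. Several are also made outside the liver, among others by endothelial cells, glia and macrophages. Lcn2 binds bacterial siderophores and so withholds iron, Hp binds free haemoglobin, Saa3 is the serum amyloid A made mainly outside the liver in mice, and Lrg1 modulates TGF-β signalling in endothelium. Serpina3n, Serpina3g and Serpina3f are mouse counterparts of the human serine protease inhibitor SERPINA3, whose gene was multiplied in rodents. Of the other members, Steap4 is a metalloreductase that reduces iron and copper, Ch25h makes 25-hydroxycholesterol, and Upp1 splits uridine.

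In the GRCm38 annotation all 10 are protein-coding. Lcn2 lies on chromosome 2 (32384633 to 32388252, 6 exons in its main transcript), Saa3 on chromosome 7 (46711998 to 46715700, 4 exons), Hp on chromosome 8 (109575128 to 109579172, 5 exons) and Lrg1 on chromosome 17 (56119678 to 56122001, 2 exons). The serpins lie in a cluster on chromosome 12, Serpina3f from 104214544 to 104221129, Serpina3g from 104236245 to 104241939 and Serpina3n from 104406729 to 104414329. Steap4 is on chromosome 5 (7960457 to 7982213, 5 exons), Upp1 on chromosome 11 (9118103 to 9136170, 9 exons) and the single-exon gene Ch25h on chromosome 19 (34473778 to 34475164). Ch25h is the only member that overlaps another annotated gene, the antisense non-coding RNA Gm26902.

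The bases just upstream of the start sites of 5 members are shown because these genes span the responses described here, from the earliest (Ch25h and Lcn2) to the latest (Saa3), and include a pair of neighbouring serpins. The bases are RefSeq promoter windows on GRCm38.p6, written from 5′ to 3′ in the direction of the gene. They are limited to bases that no coding transcript of the annotation holds in an exon, which leaves 53 bases for Lcn2. Capitals mark matches, on either strand, to 3 motifs: GGGNNNNNCC (NF-κB), TTCNNNGAA (STAT) and TTGCNNAA (C/EBP). Where matches overlap, the capitals run together.
Lcn2, chr2:32387798-32387850 (- strand): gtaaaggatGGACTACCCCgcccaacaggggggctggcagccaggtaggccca
Ch25h, chr19:34475165-34475398 (- strand): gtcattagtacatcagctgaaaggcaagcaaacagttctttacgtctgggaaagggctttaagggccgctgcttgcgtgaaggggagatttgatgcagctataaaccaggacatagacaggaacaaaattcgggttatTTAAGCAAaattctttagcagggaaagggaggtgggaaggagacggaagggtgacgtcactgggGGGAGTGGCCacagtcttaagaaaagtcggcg
Saa3, chr7:46715701-46715926 (- strand): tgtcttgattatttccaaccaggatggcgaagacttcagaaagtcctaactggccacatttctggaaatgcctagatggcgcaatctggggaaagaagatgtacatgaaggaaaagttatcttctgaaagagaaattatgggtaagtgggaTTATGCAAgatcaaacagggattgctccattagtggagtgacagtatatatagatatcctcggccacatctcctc
Serpina3f, chr12:104214294-104214543 (+ strand): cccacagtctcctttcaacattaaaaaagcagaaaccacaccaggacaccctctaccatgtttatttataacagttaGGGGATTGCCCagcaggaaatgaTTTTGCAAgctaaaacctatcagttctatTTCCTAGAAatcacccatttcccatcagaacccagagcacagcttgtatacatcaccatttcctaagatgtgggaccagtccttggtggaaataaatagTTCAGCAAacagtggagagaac
Serpina3g, chr12:104235897-104236146 (+ strand): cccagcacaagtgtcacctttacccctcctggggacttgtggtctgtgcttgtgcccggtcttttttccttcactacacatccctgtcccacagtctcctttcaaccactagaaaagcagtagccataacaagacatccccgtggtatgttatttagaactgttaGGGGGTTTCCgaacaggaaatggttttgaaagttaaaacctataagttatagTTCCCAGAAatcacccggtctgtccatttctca

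Positions below count bases upstream of the RefSeq start site. Lcn2 had the NF-κB letters GGACTACCCC at 102 and the C/EBP letters TTGCTCAA at 216, the latter outside the bases printed. Ch25h had the NF-κB letters GGGAGTGGCC at 48 and the C/EBP letters TTAAGCAA at 112. Saa3 held TTATGCAA, a C/EBP match, at 99, and neither of the other motifs. Serpina3f held NF-κB letters at 173 and 172, TTCCTAGAA at 121, and C/EBP letters at 150 and 22, and its neighbour Serpina3g held GGGGGTTTCC at 85 and TTCCCAGAA at 33. Over the 250 bases before each start site, windows were at hand for 9 members, 12 windows in all, and Hp had no entry. NF-κB letters were in 9 of the 12 windows, against 45.8% of all 32851 promoter windows, STAT letters in 4 of 12 against 7.02%, and C/EBP letters in 6 of 12 against 9.56%. The 12 windows hold more than 1 for Serpina3f and Upp1, and counted by member the letters were found in 8, 3 and 5 of the 9. A match is a description of the letters, not evidence of a site in use.

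Library depth ran from 18.3 to 25.9 M fragments. Defining endothelial markers were abundant in every library (8 genes, summed CPM 10581 to 10866 in PBS, where CPM stands for counts scaled by the effective library size), and those of pericytes, smooth muscle, astrocytes, choroid plexus, neurons and other brain cells were also present, so that the source of a transcript within the preparation was not resolved and fewer cells of a type cannot be told apart from less RNA per cell. The spread between libraries of a group was small, with a common biological coefficient of variation of 0.0524 over all genes. The scaling factors that correct for composition (TMM) averaged 1.17 in PBS and 0.717 at 4 h. Scaling by library size alone moved the median of all genes by -0.70 on the log2 scale at 4 h and by -0.16 at 30 min against PBS, and the changes reported here are relative to that median.

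The 10 genes rose in steps. With edgeR's test against a change of at most 1.49-fold (0.58 on the log2 scale) and an adjusted p below 0.05, 2 of the 10 were higher at 15 min, 7 at 30 min and all 10 at 4 h, and none was lower at any time. Among all genes tested, 3.35% were called higher at 15 min, 3.8% at 30 min and 19.1% at 4 h, and 0.898%, 0.815% and 13.9% were called lower. The median log2 fold change of the members stood at 0.29 at the first time point, 2.16 at the second and 6.91 at the last, while that of all genes tested lay between -0.01 and 0.00. Counted without a test, all 3 LPS libraries lay above all 3 PBS libraries for 3 members at 15 min (25.2% of all genes), for 9 at 30 min (23.7%) and for 10 at 4 h (35.9%).

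**Figure D1:**
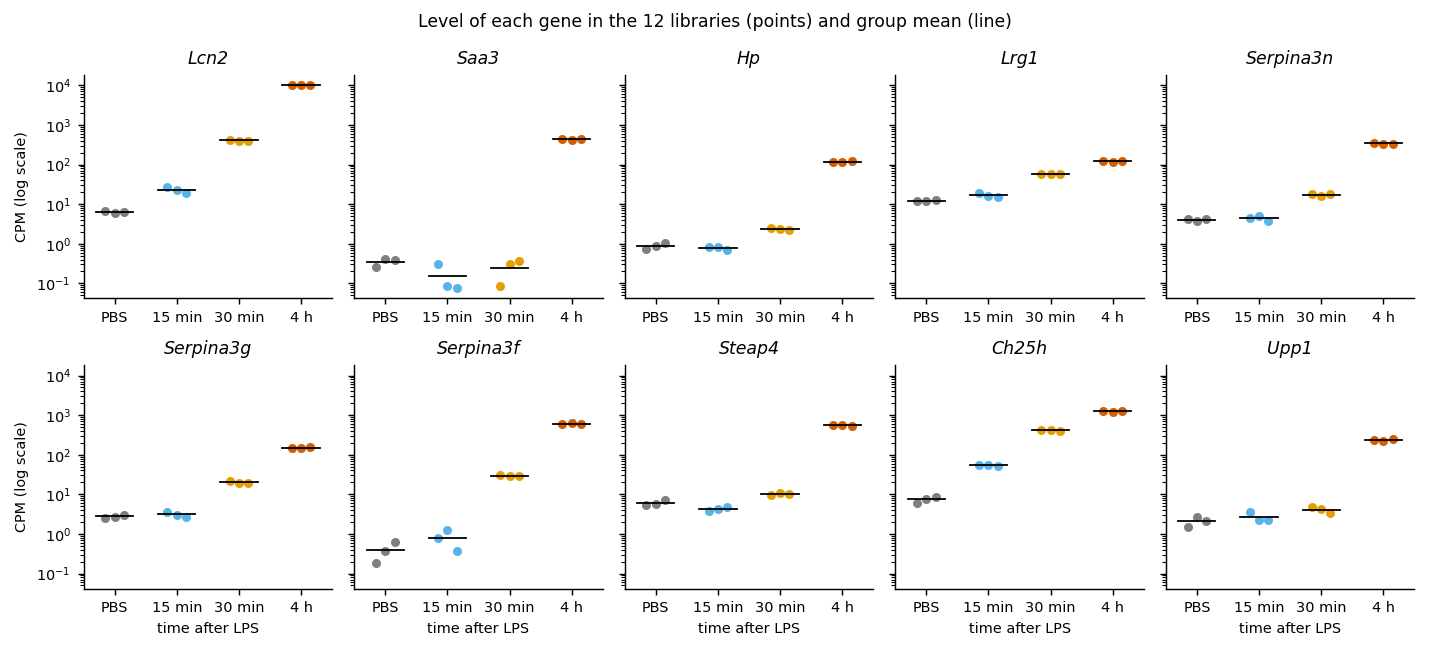
Level of each of the 10 genes in CPM on a log scale (y axis) in PBS and at each time after LPS (x axis), with a point for each of the 3 libraries of a group and a line at the group mean. Lcn2 and Ch25h are the genes called higher already at 15 min, and in every panel the 3 libraries at 4 h lie above all others.

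Lcn2 rose at every step, and its fold change at 4 h lay beside those of Serpina3f and Saa3 at the top of the members. Its level was 6.56, 5.84 and 6.22 CPM in the PBS libraries, 27.4, 22.6 and 18.9 CPM at 15 min, 414, 404 and 400 CPM at 30 min, and 10384, 10238 and 10371 CPM at 4 h. No library of a group overlapped those of the group before it. Lcn2 was thus higher than PBS by 1.90 ± 0.09 (log2 fold change ± SE) at 15 min (3.72-fold, adjusted p = 2.9e-11), 6.03 ± 0.07 at 30 min (65.5-fold, adjusted p = 3.64e-25) and 10.70 ± 0.08 at 4 h (1666-fold, adjusted p = 3.94e-30). At 4 h Lcn2 took 0.740% of all assigned fragments. Per transcript length it moved from rank 7900 of all genes in PBS (14.7 ± 0.899 TPM, SD, n = 3) to rank 2908 at 15 min, rank 129 at 30 min and finally rank 11 at 4 h (13030 ± 154 TPM), where the genes above it were mitochondrially encoded transcripts, Mt2, Ttr and Gm28661.

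The transcripts to which Lcn2 fragments were assigned also differed between the groups. Besides the coding transcript Lcn2-201, the annotation holds a processed transcript (Lcn2-204) and retained-intron transcripts (Lcn2-202, Lcn2-203 and Lcn2-205) without a coding sequence. These non-coding forms took 1.62% ± 0.218 (SD, n = 3) of the Lcn2 fragments in PBS, 27.0% ± 4.48 at 15 min, 20.8% ± 0.422 at 30 min and 7.17% ± 0.121 at 4 h. The shares of the 4 groups did not overlap, and with 3 libraries against 3 an exact permutation test cannot go below 0.1. Over all protein-coding genes together the same share averaged 8.95% in PBS, 10.2% at 15 min and 8.47% at 30 min, and 7.84% at 4 h. The PBS share rests on 8.29 of 511 fragments and the 15 min share on 486 of 1842. Lcn2-204 alone held 15.2% at 15 min and 3.15% at 4 h. When only protein-coding transcripts were summed, the log2 fold change of Lcn2 at 15 min was 1.49 and remained past the threshold.

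**Figure D2:**
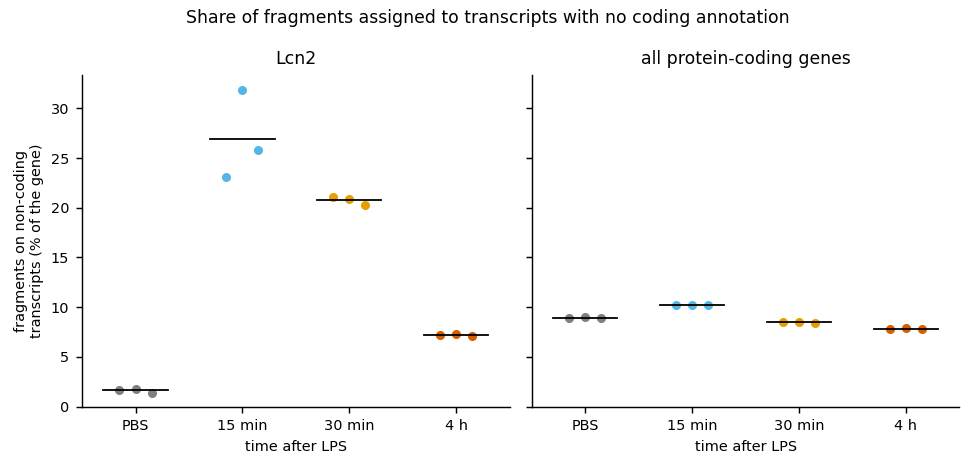
Fragments assigned to transcripts without a coding annotation, in percent of all fragments of the gene (y axis), for Lcn2 (left) and for all protein-coding genes together (right), with a point for each library and a line at the mean of the 3 libraries. The Lcn2 share is lowest in PBS (1.37% to 1.77%) and highest at 15 min (23.1% to 31.9%), while the share over all coding genes stays between 7.82% and 10.3%.

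Ch25h, the cholesterol 25-hydroxylase, was the member with the largest change at 15 min. Its level was 6.14, 7.63 and 8.78 CPM in PBS, 53.6, 55.5 and 52.5 CPM at 15 min, 418, 432 and 404 CPM at 30 min, and 1244, 1225 and 1275 CPM at 4 h. The groups did not overlap at any step. Relative to PBS, Ch25h rose on the log2 scale by 2.84 ± 0.06 at 15 min (7.16-fold, adjusted p = 2.18e-18), 5.80 ± 0.06 at 30 min (55.6-fold, adjusted p = 3.57e-27) and 7.38 ± 0.06 at 4 h (166-fold, adjusted p = 8.64e-30). Ch25h and the antisense Gm26902 share 9.51% of the 31-base words of the Ch25h transcript, and as the library kit does not mark strand, reads from the overlap cannot be told apart. Gm26902 was much lower at 2.37 ± 0.430 CPM in PBS and 10.6 ± 1.14 CPM at 4 h (SD, n = 3), and was called only at 4 h (2.16 ± 0.21).

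Saa3, like Steap4 and Upp1, was first called against PBS at 4 h, and with few early fragments the order among them was not resolved. Saa3 was the only member whose 30 min libraries did not all lie above PBS. Its level was 0.262, 0.405 and 0.382 CPM in PBS, 0.305, 0.085 and 0.0755 CPM at 15 min, and 0.0867, 0.301 and 0.358 CPM at 30 min. These values rest on 29, 13 and 17 fragments per group, and no change was called at 15 or 30 min (log2 fold change -1.08 ± 0.48 and -0.50 ± 0.45, adjusted p = 0.71 and 1). At 4 h it reached 453, 418 and 448 CPM, a log2 fold change of 10.27 ± 0.10 against PBS (1232-fold, adjusted p = 4.46e-28) and of 10.76 ± 0.11 against 30 min. When single libraries were left out, these changes ran from 10.10 to 10.39 and from 10.36 to 11.10. Per transcript length Saa3 stood at 1194 ± 52.7 TPM at 4 h, rank 69 of all genes, and only Lcn2 was higher among the members.

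The make-up of the serum amyloid family differed between PBS and 4 h. In PBS, Saa2 made up 51.8% ± 13.6 (SD, n = 3) of the family's TPM, Saa1 36.2% ± 10.5 and Saa3 12.04% ± 3.94. At 4 h Saa3 made up 91.5% ± 0.297. Saa1 and Saa2 also rose at 4 h, by 4.86 ± 0.15 and 4.23 ± 0.20 on the log2 scale (adjusted p = 1.14e-17 and 4.43e-14). Saa3 shares 5.71% of its 31-base words with other genes, mostly Saa1.

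Hp rose from 0.749, 0.877 and 1.07 CPM in PBS to 2.51, 2.41 and 2.23 CPM at 30 min and to 115, 113 and 120 CPM at 4 h. At 15 min it read 0.814, 0.807 and 0.679 CPM, within or just below the PBS range. The log2 fold change was 1.41 ± 0.16 at 30 min (adjusted p = 0.000173) and 7.01 ± 0.09 at 4 h (129-fold, adjusted p = 4.26e-25). Leaving out single libraries gave 6.89 to 7.14 at 4 h. The call at 30 min was lost in 1 alternative, limma on the deposited values with a pseudocount of 10 (1.07, adjusted p = 0.0666).

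Lrg1 was among the highest members in PBS and had the smallest change at 4 h. It measured 12.1, 12.1 and 12.8 CPM in PBS, 19.2, 16.3 and 15.2 CPM at 15 min, 58.7, 58.6 and 56.7 CPM at 30 min, and 123, 115 and 123 CPM at 4 h. All 15 min libraries lay above all PBS libraries, but the log2 fold change of 0.46 ± 0.08 did not pass the test. It was 2.23 ± 0.07 at 30 min (4.70-fold, adjusted p = 6.74e-16) and 3.28 ± 0.07 at 4 h (9.74-fold, adjusted p = 4.57e-21). Between 30 min and 4 h Lrg1 rose by 1.05 ± 0.06 (adjusted p = 1.97e-08), which fell to 0.51 and was not called with library size scaling (adjusted p = 0.881).

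The order of the 3 serpins changed with time. Serpina3f measured 0.187, 0.371 and 0.611 CPM in PBS, and read 0.78, 1.23 and 0.377 CPM at 15 min, overlapping PBS. It then climbed to 30.99, 28.4 and 29.0 CPM at 30 min (log2 fold change 6.23 ± 0.15, adjusted p = 7.14e-19), a change close to that of Lcn2. At 4 h it stood at 595, 624 and 605 CPM (10.59 ± 0.10, adjusted p = 3.71e-28). The 4 h change ran from 10.27 to 11.03 when single libraries were left out.

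Serpina3g and Serpina3n began higher. Serpina3g measured 2.51, 2.70 and 3.09 CPM in PBS, 3.56, 3.02 and 2.72 CPM at 15 min, 21.5, 19.8 and 19.3 CPM at 30 min, and 145, 152 and 154 CPM at 4 h. Serpina3n measured 4.16, 3.78 and 4.31 CPM in PBS, 4.51, 4.97 and 3.77 CPM at 15 min, 18.2, 16.3 and 17.7 CPM at 30 min, and 348, 339 and 339 CPM at 4 h. Both overlapped PBS at 15 min and were clear of it from 30 min on. The log2 fold change at 30 min was 2.87 ± 0.09 for Serpina3g (adjusted p = 9.57e-16) and 2.09 ± 0.08 for Serpina3n (adjusted p = 1.63e-13). At 4 h it was 5.77 ± 0.08 for Serpina3g and 6.39 ± 0.06 for Serpina3n (adjusted p = 6.59e-25 and 5.51e-28).

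Within the Serpina3 family of 14 annotated genes and pseudogenes, Serpina3g and Serpina3n made up nearly all TPM in PBS, 48.9% ± 2.77 and 46.6% ± 4.75 (SD, n = 3), against 3.95% ± 1.74 for Serpina3f. At 30 min Serpina3f and Serpina3g held equal shares within their spread, 36.2% ± 0.303 and 36.6% ± 0.453, and Serpina3n 23.0% ± 0.527. At 4 h Serpina3f held 48.5% ± 0.684, Serpina3n 29.1% ± 0.719 and Serpina3g 17.4% ± 0.550. The summed family rose from 7.51 ± 0.742 to 531 ± 1.43 TPM. Of the remaining genes, Serpina3h held 2.52% and Serpina3i 2.36% at 4 h. Serpina3h had no fragment in PBS and 673 over the 3 libraries at 4 h, at least 433-fold higher against a floor of 3 fragments over the PBS group. It was also called at 15 min on 8 fragments (adjusted p = 0.0283), a call lost without any single PBS library or 15 min library 2 (adjusted p of 0.0974 to 0.165), with DESeq2 (adjusted p = 0.288), and with limma plus 1 and plus 10 (adjusted p = 0.225 and 1). These genes are near copies, and 27.4% of the 31-base words of Serpina3f, 30.1% of Serpina3g and 21.6% of Serpina3n occur in transcripts of other genes, so the division of fragments among them is uncertain.

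**Figure D3:**
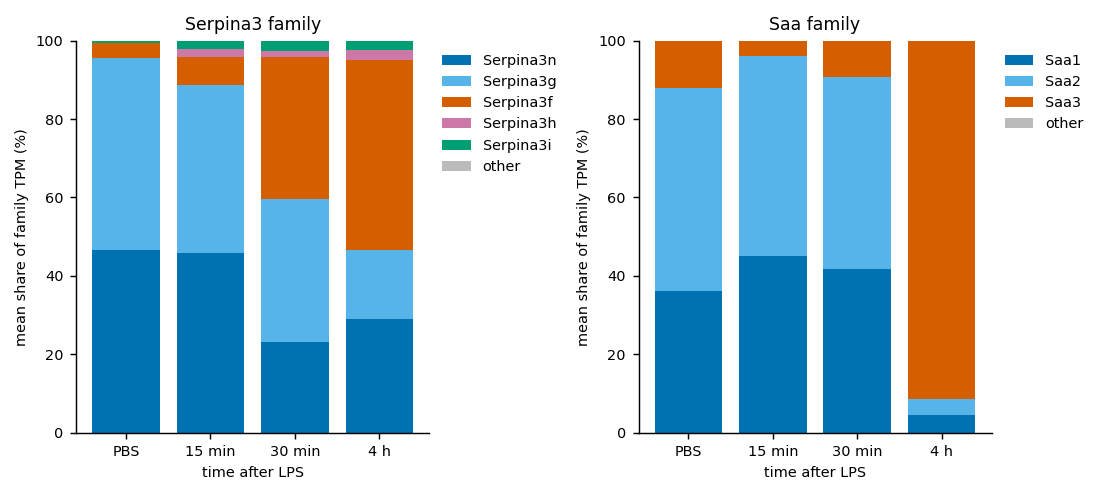
Mean share of each gene in the summed TPM of the Serpina3 family (left) and of the serum amyloid family (right), in percent (y axis), by group (x axis, 3 libraries each). Serpina3f grows from 3.95% in PBS to 48.5% at 4 h, and Saa3 from 12.04% to 91.5%.

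Steap4 was the member that read lower at 15 min in all libraries. It measured 5.51, 5.63 and 7.02 CPM in PBS against 3.90, 4.25 and 4.68 CPM at 15 min, a log2 fold change of -0.50 ± 0.10 that passed the test only when the fold limit was dropped (adjusted p = 0.000335). At 30 min it read 9.45, 10.9 and 10.0 CPM, above all PBS libraries, with a log2 fold change of 0.75 ± 0.09 that did not pass the test (adjusted p = 0.152). It did pass when PBS library 3 was left out (0.86, adjusted p = 0.0104) or the fold limit dropped (adjusted p = 2.68e-07). From 15 to 30 min it rose by 1.25 ± 0.09 (adjusted p = 2.45e-06), and at 4 h it reached 548, 554 and 547 CPM (6.51 ± 0.06 against PBS, 91.0-fold, adjusted p = 5.99e-29).

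Upp1, the uridine phosphorylase, was also called at 4 h alone among the times compared with PBS. It measured 1.498, 2.63 and 2.10 CPM in PBS, 3.63, 2.29 and 2.30 CPM at 15 min and 4.77, 4.26 and 3.35 CPM at 30 min. The libraries at 30 min lay above those of PBS, but the log2 fold change of 0.98 ± 0.20 did not pass the test (adjusted p = 0.127). It passed without PBS library 2 (adjusted p = 0.0331), with no filter on low counts (0.97, adjusted p = 0.0157) and with no fold limit (adjusted p = 0.000345). At 4 h it reached 241, 220 and 252 CPM (6.82 ± 0.11, 113-fold, adjusted p = 1.87e-23).

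**Figure D4:**
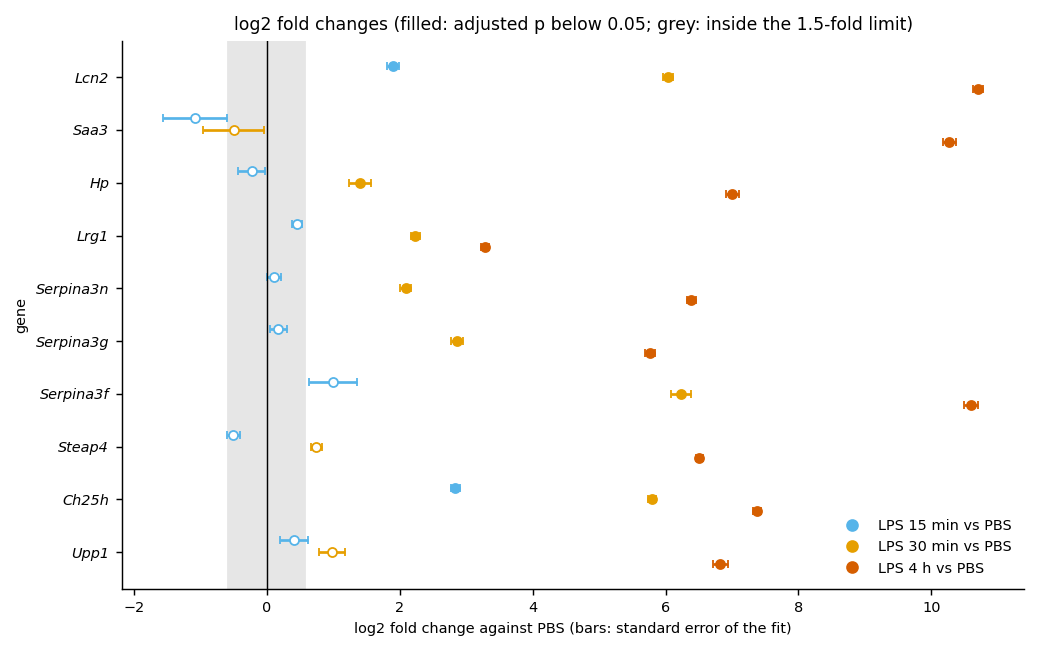
Log2 fold change of each of the 10 genes against PBS (x axis) at the 3 times after LPS, with filled points for an adjusted p below 0.05 in the test against 1.49-fold and the grey band for changes inside that limit. Bars are the approximate SE derived from F of the test against no change, not standard errors of the coefficients. They can understate the uncertainty of large changes from few PBS fragments. The filled points number 2 at 15 min, 7 at 30 min and 10 at 4 h.

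The steps between the time points were tested directly. From 15 to 30 min 8 of the 10 genes rose, against 2.77% of all genes, and the exceptions were Saa3 and Upp1 (0.58 ± 0.55 and 0.57 ± 0.19, adjusted p = 1 for both). Serpina3f changed most (5.23 ± 0.13), followed by Lcn2 (4.14 ± 0.06) and Ch25h (2.96 ± 0.04). From 30 min to 4 h all 10 rose, against 17% of all genes, from 1.05 for Lrg1 and 1.58 ± 0.04 for Ch25h to 10.76 for Saa3.

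The share of the 4 h increase already present at 30 min separated the members, taken in CPM from each 30 min library and the means of PBS and 4 h. It was 42.3% ± 1.02 (SD, n = 3) for Lrg1 and 33.1% ± 1.11 for Ch25h. Serpina3g stood at 11.8% ± 0.783. The others were below 5%, namely Serpina3f (4.78% ± 0.221), Serpina3n (3.93% ± 0.290), Lcn2 (3.87% ± 0.0674), Hp (1.29% ± 0.123), Upp1 (0.871% ± 0.304), Steap4 (0.750% ± 0.138) and Saa3 (-0.0230% ± 0.0325). The ranges of Serpina3n and Lcn2 overlapped, as did those of Upp1 and Steap4. The order depended on the scale. Taken as the log2 fold change at 30 min in percent of that at 4 h, the share was 78.6% for Ch25h, 68.0% for Lrg1, 58.8% for Serpina3f, 56.4% for Lcn2 and 49.7% for Serpina3g. It was 32.7% for Serpina3n, 20.1% for Hp, 14.4% for Upp1, 11.5% for Steap4 and -4.83% for Saa3, so that Serpina3f and Lcn2 stood beside Lrg1 on this scale and far below it in CPM.

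Levels of different genes were compared per transcript length. At baseline the order was Lrg1 (16.9 ± 0.744 TPM), Lcn2 (14.7 ± 0.899) and Ch25h (10.2 ± 1.75), then Serpina3g, Serpina3n, Upp1 and Steap4 between 3.27 and 3.68 TPM without separation, then Saa3 and Hp at 1.29 and 1.25 TPM, and Serpina3f at 0.305 TPM. At 4 h the order was Lcn2, Saa3 and Ch25h (909 ± 17.4 TPM), followed by Serpina3f (257 ± 3.82) and Upp1 (249 ± 23.7), whose libraries overlapped, Steap4 (159 ± 1.96) and Serpina3n (154 ± 4.07), which overlapped too, and Serpina3g (92.4 ± 2.69), Lrg1 (87.7 ± 2.28) and Hp (85.9 ± 2.64), each of which overlapped its neighbour.

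Several markers of other cells moved at 4 h beside the members. The 12 neutrophil genes summed to 7.53 to 9.66 CPM in PBS, 5.60 to 8.04 at 15 min, 9.25 to 11.4 at 30 min and 256.2 to 256.8 at 4 h, and Ly6g, Mpo and Elane had no fragment in PBS. At 30 min edgeR called 0 of the 9 tested neutrophil genes (1 at an unadjusted p below 0.05, and 0 with DESeq2 or limma). At 4 h all 9 were called higher, against 19.1% of all genes tested. Lcn2, Hp and Lrg1 are also products of neutrophils, and the neutrophil part in their 4 h level was not tested.

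Hepatocyte markers other than Ttr were near 0. Without Ttr, which the choroid plexus also makes, the 9 other hepatocyte genes summed to 0.382 to 0.974 CPM in PBS and 0.771 to 1.09 CPM at 4 h, and Alb, Apob, Cyp3a11, Fabp1, Serpina1c and Ahsg had no fragment in PBS. The choroid plexus list (6 genes) summed to 10498 to 10938 CPM in PBS, 13849 to 14190 at 30 min and 17637 to 18525 at 4 h, with 3 of its 6 genes called higher. None of these 3 was called with library size scaling (log2 fold changes of 0.06 to 0.43). Astrocyte genes went from 657 to 680 CPM in PBS to 880 to 920 CPM at 4 h, perivascular macrophage genes from 102 to 106 CPM to 127 to 132 CPM at 30 min and 161 to 169 CPM at 4 h. Of the 6 astrocyte genes, edgeR called 2 higher at 4 h, and DESeq2 and limma called 0. The 3 perivascular macrophage genes called higher at 4 h were not called with library size scaling (0.20 to 0.25). Fibroblast genes went from 379 to 403 CPM in PBS to 219 to 229 CPM at 4 h and microglia genes from 104 to 110 CPM to 66.5 to 72.5 CPM, and endothelial genes fell from 10581 to 10866 CPM to 6458 to 6503 CPM, with 6 of 8 called lower and Cdh5 called higher. Beside these marker counts, 19.1% of all genes tested were called higher and 13.9% lower at 4 h. At 15 min the neuron list was above PBS (453 to 463 against 286 to 296 CPM) and the smooth muscle list below (1488 to 1508 against 2346 to 2382 CPM). Their part in the members' changes was not tested.

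Other acute phase genes rose in the same libraries. Of 23 tested genes of a wider acute phase list, 1 was called lower at 15 min, 6 were higher at 30 min and 19 at 4 h, and the list median was -0.14, 0.52 and 4.22 on the log2 scale. Of all genes tested, 0.898% were lower at 15 min, and 3.8% and 19.1% were higher at 30 min and 4 h. Among the 30 min calls were Cd14, the LPS co-receptor (4.16 ± 0.07), the metallothioneins Mt2 and Mt1 (2.29 ± 0.04 and 1.58 ± 0.04), complement C3 (1.23 ± 0.13) and hepcidin (Hamp), which had no fragment in PBS and was at least 14.9-fold higher, against a floor of 3 fragments over the PBS group. Hamp rests on 3, 13 and 21 fragments in the 30 min libraries. Its bound was at least 9.48-fold without 30 min library 3, and its call was lost with limma plus 10 (1.05, adjusted p = 1). The call of C3 at 30 min was lost with the transcript length offset (0.93, adjusted p = 0.194) and with limma plus 1 and plus 10 (0.89 and 0.82, adjusted p = 1 for both). Cd14 (8.31 ± 0.06), the long pentraxin Ptx3 (7.04 ± 0.26) and Mt2 (7.004 ± 0.04) led at 4 h. The protease inhibitor A2m was the gene called lower at 15 min (-0.76 ± 0.06, adjusted p = 0.027), a call that was lost without PBS library 3 (adjusted p = 0.184) or 15 min library 3 (adjusted p = 0.313). It was also lost with the length offset (adjusted p = 0.0625), protein-coding transcripts only (0.0728), the compared groups only (0.0769) and limma plus 1 and plus 10 (0.252 and 0.334).

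Genes that fall in the liver during an acute phase response did not move as a group. Of 6 tested, 2 were called higher and 2 lower at 4 h, against 19.1% and 13.9% of all genes tested, with a list median of 0.01. Transferrin (Trf) rose by 1.48 ± 0.03 and Ttr by 0.76 ± 0.02 (0.06 and not called with library size scaling), while the retinol carrier Rbp4 fell by 2.11 on the log2 scale at 4 h and by 1.74 at 15 min, and Igf1 fell by 1.48 (not called with limma plus 1 or plus 10, adjusted p = 0.112 and 0.220). Of 11 listed genes of the serpin cluster, a list without Serpina3h, Serpina3i and Serpina9 passed the filter on low counts. Serpina3i had 1 fragment over the PBS group, 120 at 30 min and 943 at 4 h and was called higher at both times, and Serpina9 was called lower at 4 h (-3.57 ± 0.85, adjusted p = 0.00266), though not with limma plus 10 (adjusted p = 0.148).

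A list of cytokines and receptors, signalling and transcription factors and the feedback inhibitor Socs3 covered the inducing pathways. Of 23 tested, 4 were higher at 15 min, 12 at 30 min and 21 at 4 h, and 1, the receptor Lifr, was lower at 4 h (-0.89 ± 0.04), with list medians of 0.04, 0.93 and 3.63. Of all genes tested, 3.35%, 3.8% and 19.1% were higher at these times and 13.9% were lower at 4 h. The 15 min calls were Tnf (4.43 ± 0.39), Il1b (2.46 ± 0.23), the NF-κB cofactor Nfkbiz (2.14 ± 0.05) and Cebpd (1.61 ± 0.04). At 30 min Nfkbiz (5.31 ± 0.04), Cebpd (3.59 ± 0.03), Il1a (3.57 ± 0.30), Cebpb (3.05 ± 0.05), Osm (2.77 ± 0.53), Socs3 (1.72 ± 0.07), Il1r1 (0.97 ± 0.03), Rela (0.93 ± 0.03) and Osmr (0.93 ± 0.03) were among the calls, that of Osm being lost with limma plus 1 and plus 10 (adjusted p = 0.0696 and 0.191). Il6 had no fragment in the PBS and 15 min libraries, 36 fragments at 30 min and 23360 at 4 h (548 ± 13.8 CPM), which is at least 14.4-fold and at least 15068-fold higher than PBS. The 30 min call of Il6 was lost with limma plus 10 (adjusted p = 0.188). Lif rose by 8.71 ± 0.11 and Il1b by 8.15 ± 0.12 at 4 h.

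Of 18 tested receptors and partners of the secreted members, none was called at 15 min (edgeR), 2 were higher at 30 min, and 6 were higher and 3 lower at 4 h, with medians of -0.11, 0.15 and 0.23. At 15 min the count was also 0 at an unadjusted p below 0.05, and 0 with DESeq2 and limma. Of all genes tested, 3.8% were higher at 30 min, and 19.1% were higher and 13.9% lower at 4 h. The 30 min calls were the endocytic receptor Lrp2, which takes up Lcn2 (1.71 ± 0.25), and Tlr2 (1.45 ± 0.08), and at 4 h the formyl peptide receptors Fpr2 (6.28 ± 0.29) and Fpr1 (4.63 ± 0.28) and Tlr2 (5.89 ± 0.06) led. The Lcn2 receptor Slc22a17 read 0.14 ± 0.03 at 4 h and was not called.

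The families of the enzyme members were mixed, and of all genes tested 19.1% were called higher and 13.9% lower at 4 h. Among 13 STEAP and iron genes, 7 were higher and 3 lower at 4 h (median 1.22), with ceruloplasmin (Cp) up by 2.84 ± 0.02, the zinc and iron importer Slc39a14 by 2.73 ± 0.07, and the iron exporter ferroportin (Slc40a1) lower at 30 min (-0.89 ± 0.03) and 4 h (-4.13 ± 0.05). Steap1 and Steap2 rose by 1.45 ± 0.07 and 1.22 ± 0.05 at 4 h, Steap2 not being called with library size scaling (0.52). Among 15 oxysterol genes 6 were higher and 3 lower at 4 h (median 0.16), among them Cyp7b1, which metabolizes 25-hydroxycholesterol (2.28 ± 0.09), the exporter Abca1 (2.13 ± 0.03) and Cyp27a1 (-1.64 ± 0.16). Cyp46a1, the neuronal cholesterol 24-hydroxylase, was the gene of this list called at 15 min (0.78 ± 0.05), though not with limma plus 1 or plus 10 (adjusted p = 0.137 and 0.163). Among 16 pyrimidine genes 4 were higher and 4 lower at 4 h (median -0.14), with Nt5c3 up by 3.44 ± 0.05 and Tk1 by 1.06 ± 0.20, which was not called without 4 h library 2 (adjusted p = 0.107). Tk1 was also not called with library size only (0.35, adjusted p = 0.821), protein-coding transcripts only (0.77, adjusted p = 0.665), DESeq2 (adjusted p = 0.107) or limma plus 1 and plus 10 (adjusted p = 0.0648 and 0.0988). The paralog Upp2 was called lower (-1.09 ± 0.16), but read 0.29 when only protein-coding transcripts were summed and was not called with the length offset (adjusted p = 0.191) or limma plus 1 and plus 10 (0.429 and 0.561). The nucleoside transporter Slc28a2 was called lower at 30 min (-1.47 ± 0.34, adjusted p = 0.0409), a call lost on leaving out any of the 30 min libraries or PBS library 2 or 3 (adjusted p of 0.0546 to 0.201). That call was also lost with protein-coding transcripts only, the compared groups only, DESeq2, and limma plus 1 and plus 10 (adjusted p of 0.0545 to 0.202).

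For each member the genes with the most alike course were sought by the root mean square difference over the 12 libraries of log2(CPM + 1), each gene taken relative to its PBS mean. Saa3 had the closest neighbour, Rsad2 (0.11 log2 units), followed by Slfn4 (0.25) and Mx1 (0.29). Lrg1 was nearest to Ifrd1 (0.17), then Zfp46 and Pim3, and Hp to Gbp5 (0.23), Casp4 and Pde4b. The nearest neighbour was Gm20400 for Steap4 (0.24) and Isg20 for Upp1 (0.25), and Acod1 was second for both.

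Among the serpins, Serpina3n was nearest to AC160336.1 (0.22), Gm29408 and Ccl4, Serpina3g to Gm42031 (0.33), Cebpb and Cep85, and Serpina3f to Cd14 (0.56), Ccl2 and Rnd1. Ch25h was nearest to Ptgs2 (0.86), Plaur and Tnfaip3, and Lcn2 to Cxcl2 (1.18), Cxcl10 and Sele. Among the members themselves the closest pairs were Hp with Steap4 (0.27) and Hp with Upp1 (0.30). The constant of 1 damps the early changes of genes near or under 1 CPM, such as Saa3 and Hp.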

How the data were processed

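RNA-seq was done on vessels isolated from the forebrain of perfused mice, with meninges removed, by homogenization, dextran separation and capture on a mesh. Libraries were made with SMART-Seq v4 and Nextera XT, which do not mark strand. Per the labels and the study's methods, the authors quantified transcripts with Salmon 1.2.1 (GRCm38.p6) and deposited, for each library, estimated counts, TPM values and effective lengths per transcript. A deposited table over genes holds normalized counts (here used as a signal that is never negative), which the authors scaled in DESeq2 by size factors and average transcript length. Its columns carry numbers only and were matched to the libraries by the number in the name of each library's own file; they entered the limma alternatives alone.

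Estimated counts were joined to GENCODE annotation (139852 of 140948 transcripts; unjoined transcripts held 0.482% to 0.850% of fragments), summed by gene and rounded. edgeR 4.0.16 (R 4.3.3) was fitted to all 12 libraries with TMM factors after filterByExpr (minimum count 10, total 15, proportion 0.7), with a quasi-likelihood test against a log2 change of 0.58 and Benjamini-Hochberg adjustment over 19150 genes (threshold 0.05). Every adjusted p is from this fit unless another tool is named. CPM used the effective library size. Alternatives were other scaling factors, no filter, no fold limit, a transcript length offset, protein-coding transcripts only, the compared groups only, a replicate block, DESeq2 1.42.0 with a local dispersion trend (the parametric trend converged or failed with the number of processor threads, and the local one was set after this was seen), limma 3.58.1 on the log2 of the deposited signal plus 1 or 10, and leaving out each library. The procedure was tested on simulated data.

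Libraries of a group differed beyond counting noise (chi-square per degree of freedom 2.56 to 7.14 over 12 pairs). None was therefore taken for a repeat sequencing of the same library. As the comparison is with counting noise only, it cannot tell separate pools of mice from separate library preparations of the same RNA. That the libraries are separate pools rests on the study's description, and the p-values depend on it. The smallest p that an exact permutation test can give for 3 libraries against 3 is 0.1. The members and gene lists were chosen with earlier results of these data known. Besides the members, the text names up to 3 genes of each list with the largest called change at 4 h (mean count at least 50), every listed gene called at 15 or 30 min (apart from an item that is not reported here), the 3 genes most alike each member, and genes overlapping a member. Genes outside this rule (Saa1, Saa2, Serpina3h, Serpina9, Ttr, Lifr, Slc22a17, Steap1, Steap2 and Cdh5) were chosen after their values were seen. No deposited comparison of the authors was used.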

Additional observations from a re-analysis of the deposited data

Results flagged for a closer look

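The response of the members to LPS differed between the time points by a direct test of one time against the other (edgeR, adjusted p below the threshold for each value given). From 15 to 30 min the log2 difference was 4.14 for Lcn2, 1.63 for Hp, 1.77 for Lrg1, 1.98 for Serpina3n, 2.69 for Serpina3g, 5.23 for Serpina3f, 1.25 for Steap4 and 2.96 for Ch25h, and every 30 min library lay above every 15 min library. The share of all genes so separated was not counted between these times. Against PBS it was 23.7% at 30 min. From 30 min to 4 h it was 4.67 for Lcn2, 10.76 for Saa3, 5.60 for Hp, 1.05 for Lrg1, 4.30 for Serpina3n, 2.90 for Serpina3g, 4.37 for Serpina3f, 5.76 for Steap4, 1.58 for Ch25h and 5.84 for Upp1. Ch25h and Lrg1 had the smallest second steps, and Lrg1's was not called with library size scaling.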

How the results depend on the processing

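The number of members called was the same or within 1.5 times under the alternatives tried, except that with no fold limit it was 5 rather than 2 at 15 min, since Lrg1 and Serpina3f were then called higher and Steap4 lower. With no fold limit the genes called in the companion lists numbered 59 rather than 7 at 15 min and 67 rather than 23 at 30 min. The median log2 fold change of the members at 4 h, 6.91, was 6.21 with library size only, 7.04 with the transcript length offset, and 7.02 and 6.62 with limma on the deposited values plus 1 and plus 10, and ran from 6.76 to 7.01 when single libraries were left out. The direction of Serpina3g at 15 min, not called at 0.17, turned to -0.0674 with the length offset and to -0.0778 and -0.0671 with limma plus 1 and plus 10. The cause was not tested. With the replicate block, the members called numbered 2, 7 and 10 at the times compared with PBS and the median at 4 h was 6.91, and no call of a member changed. Samples that share a number are not known to be paired, as their deviations correlated at -0.05 to 0.07 over 18 pairs. Saa3 was too low to be tested at 15 and 30 min when only the compared groups were fitted. Low counts of Saa3, Hp, Serpina3f and Upp1 in PBS limit what could be called before 4 h, though Hp and Serpina3f were called at 30 min.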
